A study of Mus musculus with 6 samples.

Results

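The autophagy machinery genes are 41 genes whose products build the autophagosome and choose its cargo, out of 21911 protein-coding genes examined. They were chosen by name and sorted into 7 steps, and the peaks counted for each were those within 1 kb of any transcript start that GENCODE mouse release M21 gives the gene. H3K4me3, trimethylation of lysine 4 on histone H3 and a mark of active promoters, was profiled by ChIP-Seq in STHdh cells. These are conditionally immortalized murine striatal progenitor cells, labelled as strain C57BL/6, and each genotype was 1 cell line. STHdhQ7 cells express wild-type huntingtin, and STHdhQ111 cells are homozygous for a knocked-in expansion of the polyglutamine tract of huntingtin. All cells were kept without serum for 24 h. Q7SST is the STHdhQ7 line with vehicle and Q111SST the STHdhQ111 line with vehicle. The other 4 lists came from STHdhQ111 cells given cyproheptadine, loxapine, diacylglycerol kinase inhibitor II (DKI) or meclizine, each at 10 uM.

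Each condition had 1 peak list, so there was no replicate spread, no test was possible and every difference below describes these lists. The 6 lists held between 30758 peaks (DKI) and 45564 peaks (loxapine), and read depth is unknown. Strength is the percentile of a gene's highest-scoring peak among all peaks of the same list, since the authors' scores cannot be assumed to share 1 scale. Width is the length of that peak. In chromatin from a whole culture, a mark carried by fewer cells and a weaker mark carried by all cells cannot be told apart. Markers were read the same way: 7 to 9 of 10 ventral forebrain or striatal progenitor genes and 4 to 7 of 8 neural progenitor genes were marked in each list. Isl1, which helps specify striatal projection neurons, was unmarked in all 6 lists, as were the dopamine receptor genes Drd1 and Drd2 of mature striatal neurons. Of 8 mature striatal neuron genes, 6 were marked in Q7SST and 4 in Q111SST. With loxapine 3 were marked, with cyproheptadine 1, with meclizine 4 and with DKI 1. Of 10 genes of other tissues, Apoa1 alone was marked, in Q7SST.

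Macroautophagy encloses cytoplasm in a growing double membrane that then fuses with the lysosome. A kinase complex around ULK1 starts the process, a lipid kinase complex around VPS34 marks the membrane, lipid carriers and scramblases feed it, and a ubiquitin-like conjugation system attaches ATG8 proteins to it. Receptors tie cargo to those ATG8 proteins, and the transcription factor TFEB drives many of the genes when nutrients or lysosomes fail. Neurons depend on this route to clear aggregated proteins, among them mutant huntingtin.

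Promoters of the autophagy machinery were marked throughout. A peak lay within 1 kb of a start in all 6 lists for 40 of the 41 genes, where 53.5% of all protein-coding genes were marked in all 6. Atg9b, one of a pair of genes for the ATG9 lipid scramblase, was the exception. The number of separate peaks near the 41 genes was 45 in Q7SST, 45 in Q111SST, 49 with loxapine, 47 with cyproheptadine, 45 with meclizine and 45 with DKI. Their median strength was 90.1 in Q7SST, 89.6 in Q111SST, 89.2 with loxapine, 86.1 with cyproheptadine, 89.2 with meclizine and 82.6 with DKI. The median over all marked protein-coding genes was 80.4, 82.6, 83.0, 79.5, 80.3 and 76.3 in the same order of lists. The genes stood above the all-gene median in 30 of 40, 30 of 41, 30 of 41, 29 of 41, 31 of 41 and 26 of 40 cases. In Q111SST, 10 of the 41 genes shared their strongest peak with another protein-coding gene (24.4%, beside 21.8% of all marked genes), so that the peak cannot be assigned to either start alone. These were Atg13 (shared with Harbi1), Atg2b (Gskip), Atg9a (Ankzf1), Atg9b (Abcb8), Vmp1 (Ptrh2), Atg3 (Slc35a5), Atg4b (Thap4), Atg12 (Ap3s1), Sqstm1 (Mgat4b) and Nbr1 (Brca1). Values given for them below are values of the shared peak.

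**Figure D1:**
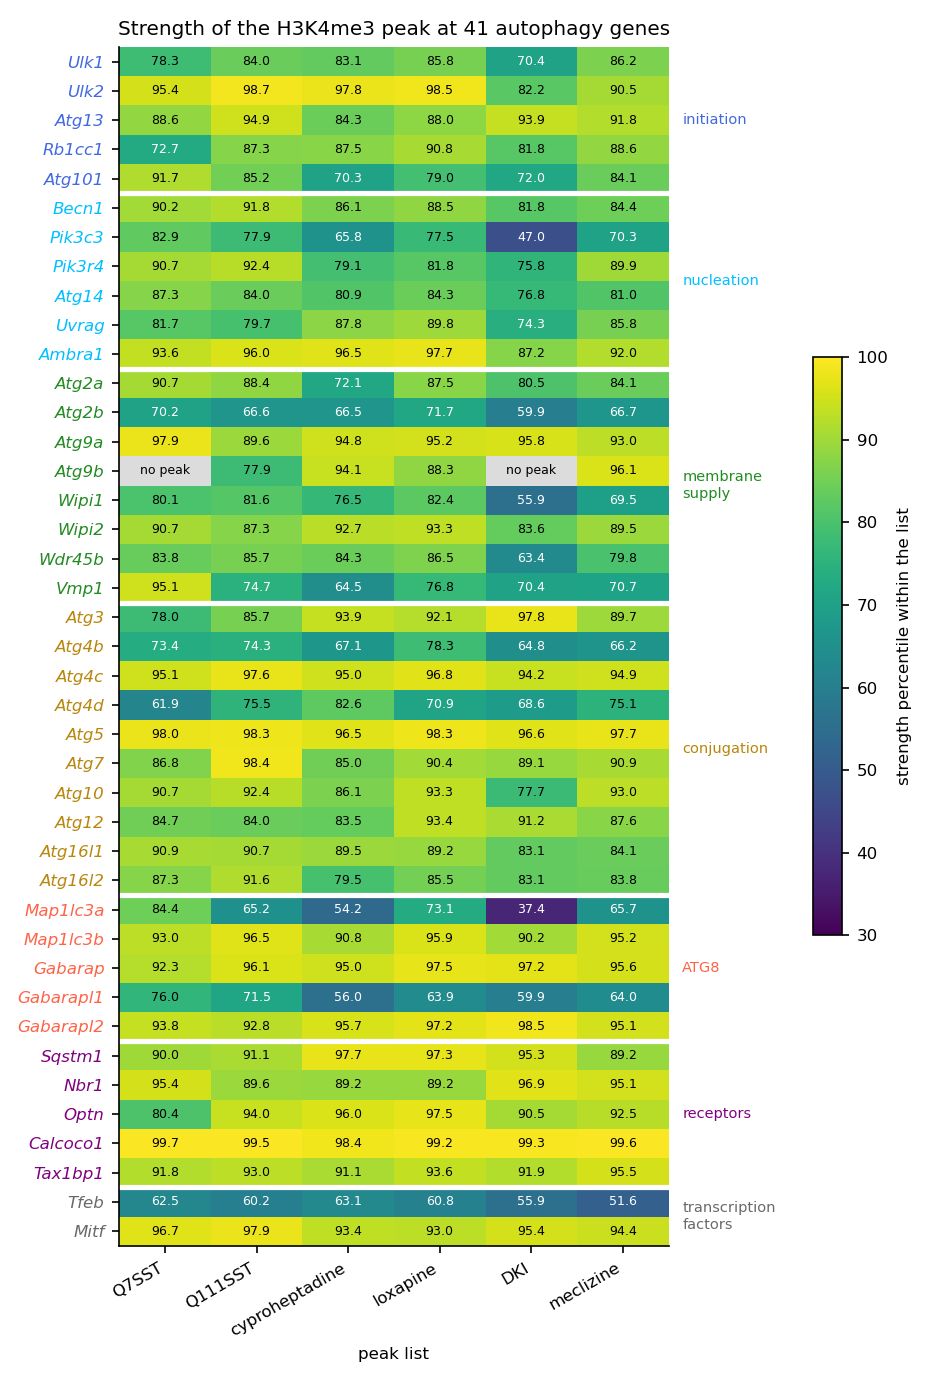
Strength percentile of the strongest H3K4me3 peak (colour and printed value) at each of the 41 autophagy genes (rows, grouped by step) in each of the 6 peak lists (columns), with grey where no peak lay within 1 kb. Calcoco1 stood at 98.4 or above in every list, Tfeb between 51.6 and 63.1, and Map1lc3a ran from 37.4 with DKI to 84.4 in Q7SST.

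In Q111SST the 41 genes spanned percentiles from 60.2 to 99.5. Calcoco1, a receptor gene, had the strongest peak of the 41 in every list, and its percentile ran from 98.4 to 99.7. Over the 6 lists the percentile of 1 gene varied by under 10 points for 14 genes, by 10 to under 20 points for 19 and by 20 points or more for 8. The 8 were Atg101, Pik3c3, Wipi1, Wdr45b, Vmp1, Atg4d, Map1lc3a and Gabarapl1. Percentiles near the top have little room to rise. The narrowest ranges after Calcoco1 were Atg5 (96.5 to 98.3) and Atg4c (94.2 to 97.6), both of the conjugation system.

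The transcription factors come first, because they are the regulators of the rest. Tfeb, the master regulator of lysosome and autophagy genes, had the weakest peak of the 41 in Q111SST, and its strength percentile was 62.5 in Q7SST, 60.2 in Q111SST, 60.8 with loxapine, 63.1 with cyproheptadine, 51.6 with meclizine and 55.9 with DKI. Meclizine gave the lowest and cyproheptadine the highest of these values. Mitf, its relative and the master regulator of pigment cells, ranked far higher, with a strength percentile of 96.7 in Q7SST, 97.9 in Q111SST, 93.0 with loxapine, 93.4 with cyproheptadine, 94.4 with meclizine and 95.4 with DKI. GENCODE gives Mitf 4 separate groups of starts (starts within 500 bp of the next joined), and the most upstream group alone was marked, in all 6 lists. For Tfeb, 3 neighbouring groups at its 5′ end lay within 1 kb of the same peak in every list, of 2444 in Q7SST, 2164 in Q111SST, 2155 with loxapine, 1716 with cyproheptadine, 2141 with meclizine and 1798 with DKI bp. A further Tfeb start, inside the gene at position 47763170 of chromosome 17, had a peak of score 60, strength 57.4 and 628 bp in Q7SST and none in the other 5 lists.

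Sequences of promoter windows (250 bases before to 50 after a start, RefSeq, GRCm38.p6) were available for 34 of the 41 genes, 43 windows in all. The Tfeb and Mitf windows are shown because marked and unmarked starts of the same gene stand side by side in them. Capitals mark each CG dinucleotide.
Tfeb, 5′ start, chr17:47736787-47737086, plus strand: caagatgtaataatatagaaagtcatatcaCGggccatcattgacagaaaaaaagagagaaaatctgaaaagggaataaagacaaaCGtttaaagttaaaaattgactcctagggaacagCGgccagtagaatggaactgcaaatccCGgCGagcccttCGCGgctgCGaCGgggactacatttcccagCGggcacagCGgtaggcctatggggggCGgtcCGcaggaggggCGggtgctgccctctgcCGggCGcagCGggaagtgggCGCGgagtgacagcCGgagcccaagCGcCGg
Tfeb, next start, chr17:47737681-47737980, plus strand: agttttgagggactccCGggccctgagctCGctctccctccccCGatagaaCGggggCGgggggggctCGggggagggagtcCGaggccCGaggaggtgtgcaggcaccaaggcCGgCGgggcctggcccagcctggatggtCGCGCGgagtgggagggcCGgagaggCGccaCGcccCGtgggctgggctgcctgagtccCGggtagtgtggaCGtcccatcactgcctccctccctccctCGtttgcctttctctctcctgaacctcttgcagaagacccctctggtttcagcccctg
Tfeb, internal start marked in Q7SST alone, chr17:47762920-47763219, plus strand: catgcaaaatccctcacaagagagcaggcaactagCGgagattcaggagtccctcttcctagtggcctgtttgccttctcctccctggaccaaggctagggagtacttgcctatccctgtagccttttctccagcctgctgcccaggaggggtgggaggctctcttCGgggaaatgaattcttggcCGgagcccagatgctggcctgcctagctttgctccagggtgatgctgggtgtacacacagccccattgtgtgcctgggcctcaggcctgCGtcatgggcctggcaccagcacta
Mitf, upstream start, chr6:97806808-97807107, plus strand: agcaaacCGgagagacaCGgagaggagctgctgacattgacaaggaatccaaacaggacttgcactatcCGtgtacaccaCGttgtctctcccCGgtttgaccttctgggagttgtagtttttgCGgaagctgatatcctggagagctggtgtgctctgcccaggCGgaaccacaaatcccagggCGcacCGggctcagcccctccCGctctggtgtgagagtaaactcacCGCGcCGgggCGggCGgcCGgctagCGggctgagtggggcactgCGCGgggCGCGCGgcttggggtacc
Mitf, downstream start, chr6:97929567-97929866, plus strand: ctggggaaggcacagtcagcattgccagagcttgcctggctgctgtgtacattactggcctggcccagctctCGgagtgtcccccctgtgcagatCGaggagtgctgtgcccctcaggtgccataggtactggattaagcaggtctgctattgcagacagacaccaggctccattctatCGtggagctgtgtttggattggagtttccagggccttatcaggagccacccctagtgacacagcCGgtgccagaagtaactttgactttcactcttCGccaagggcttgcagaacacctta
The ratio of CG dinucleotides observed to those expected from base composition was 0.966 in the first Tfeb window, 0.545 in the second and 0.153 in the internal one, which was read from the genome around the GENCODE start. In Mitf it was 0.752 at the marked start and 0.215 at the unmarked one. Another Mitf window at 97991533 to 97991832 had 0.673 and no peak in any list. A high ratio therefore did not always come with a peak at these genes. The first Tfeb window was overlapped by a peak in 2 lists, Q7SST and meclizine, while in the other 4 the peak began further downstream.

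TFEB and MITF bind a palindrome whose core is CACGTG, and the longer form TCACGTGA was searched too. Each reads the same on both strands, and the longer form holds the shorter. CACGTG was found in 4 of the 43 windows (9.3%), beside 8.03% of 20150 windows of all protein-coding genes. TCACGTGA was in 1 window, that of Atg3 (2.33%, beside 1.26%). The 4 windows are shown because they hold the core motif, with CACGTG in capitals.
Atg3, chr16:45158579-45158878, plus strand: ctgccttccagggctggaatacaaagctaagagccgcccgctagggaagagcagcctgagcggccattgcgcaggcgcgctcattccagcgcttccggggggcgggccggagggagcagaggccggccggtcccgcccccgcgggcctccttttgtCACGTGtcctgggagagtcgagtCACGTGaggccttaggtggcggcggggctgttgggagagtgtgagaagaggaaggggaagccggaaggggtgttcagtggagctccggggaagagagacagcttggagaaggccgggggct
Atg5, chr10:44268089-44268388, plus strand: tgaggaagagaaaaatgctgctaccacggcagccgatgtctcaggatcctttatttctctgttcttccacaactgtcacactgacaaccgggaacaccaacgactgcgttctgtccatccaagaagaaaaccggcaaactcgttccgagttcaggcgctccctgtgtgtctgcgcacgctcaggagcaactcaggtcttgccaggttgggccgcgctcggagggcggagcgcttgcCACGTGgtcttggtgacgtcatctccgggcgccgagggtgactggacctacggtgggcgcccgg
Atg14, chr14:47568385-47568684, minus strand: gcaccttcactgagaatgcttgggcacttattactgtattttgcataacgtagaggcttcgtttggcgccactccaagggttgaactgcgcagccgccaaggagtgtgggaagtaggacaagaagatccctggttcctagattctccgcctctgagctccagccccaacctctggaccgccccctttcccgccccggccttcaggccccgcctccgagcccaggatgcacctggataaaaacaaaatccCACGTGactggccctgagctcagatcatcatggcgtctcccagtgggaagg
Atg7, downstream start, chr6:114670846-114671145, plus strand: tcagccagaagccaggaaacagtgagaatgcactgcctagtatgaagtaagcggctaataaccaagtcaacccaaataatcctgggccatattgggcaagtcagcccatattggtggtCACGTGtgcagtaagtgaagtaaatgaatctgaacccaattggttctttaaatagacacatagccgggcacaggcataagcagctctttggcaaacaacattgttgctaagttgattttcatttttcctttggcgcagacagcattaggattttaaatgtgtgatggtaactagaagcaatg
The Atg3 window holds the core at 2 places and the other windows at 1. The windows of Atg3, Atg5 and Atg14 were overlapped by a peak in all 6 lists. The Atg7 window lies inside the gene at a start that had no peak in any list, so its motif is not in the marked Atg7 promoter. These are letter matches in 300 bases and say nothing of binding.

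Initiation rests on the ULK kinase complex. Its 5 genes had a median strength of 88.6 in Q7SST, 87.3 in Q111SST, 88.0 with loxapine, 84.3 with cyproheptadine, 88.6 with meclizine and 81.8 with DKI. Ulk2, a kinase with overlapping roles to ULK1, was the strongest in Q111SST, with a strength percentile of 95.4 in Q7SST, 98.7 in Q111SST, 98.5 with loxapine, 97.8 with cyproheptadine, 90.5 with meclizine and 82.2 with DKI. DKI gave its lowest value, 16.6 points below Q111SST. Ulk1, the kinase that TOR signalling holds back, was the weakest of the step in Q111SST, with 78.3 in Q7SST, 84.0 in Q111SST, 85.8 with loxapine, 83.1 with cyproheptadine, 86.2 with meclizine and 70.4 with DKI. Its DKI value was again the low one, 13.6 points below Q111SST.

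The 3 other subunits moved apart from each other. Atg13, the regulatory subunit that TOR phosphorylates, had a percentile of 88.6 in Q7SST, 94.9 in Q111SST, 88.0 with loxapine, 84.3 with cyproheptadine, 91.8 with meclizine and 93.9 with DKI, lowest with cyproheptadine. Atg101, which stabilizes ATG13, had 91.7 in Q7SST, 85.2 in Q111SST, 79.0 with loxapine, 70.3 with cyproheptadine, 84.1 with meclizine and 72.0 with DKI. Q7SST was highest there, and cyproheptadine and DKI stood 14.9 and 13.1 points below Q111SST. Rb1cc1, the scaffold FIP200, had 72.7 in Q7SST, 87.3 in Q111SST, 90.8 with loxapine, 87.5 with cyproheptadine, 88.6 with meclizine and 81.8 with DKI, and Q7SST was the low list, 14.6 points below Q111SST. At Rb1cc1 the strongest peak in Q7SST was 1 of a pair of peaks, while Q111SST had a single peak across the start, so that strength and width there were read from unlike intervals.

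Nucleation needs the lipid kinase VPS34, encoded by Pik3c3, and its partners. The median over the 6 genes was 88.8 in Q7SST, 87.9 in Q111SST, 86.4 with loxapine, 83.5 with cyproheptadine, 85.1 with meclizine and 76.3 with DKI. Pik3c3 was the weakest of the step in Q111SST and had the second-widest spread of the 41 genes, with 82.9 in Q7SST, 77.9 in Q111SST, 77.5 with loxapine, 65.8 with cyproheptadine, 70.3 with meclizine and 47.0 with DKI. The DKI value lay 30.9 points below Q111SST, the largest difference of the 41 genes in that list, although the peak was nearly as long (1264 bp, beside 1349 bp in Q111SST). With a window of 5 kb the Pik3c3 difference in DKI was -3.31 points, since a stronger peak then entered. Pik3r4, the VPS15 scaffold of the kinase, had 90.7 in Q7SST, 92.4 in Q111SST, 81.8 with loxapine, 79.1 with cyproheptadine, 89.9 with meclizine and 75.8 with DKI. Cyproheptadine, loxapine and DKI stood 13.4, 10.7 and 16.6 points below Q111SST.

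Becn1, the core regulatory subunit Beclin 1, had a percentile of 90.2 in Q7SST, 91.8 in Q111SST, 88.5 with loxapine, 86.1 with cyproheptadine, 84.4 with meclizine and 81.8 with DKI, lowest with DKI. Ambra1, an adaptor of Beclin 1, was the strongest gene of the step in Q111SST, with 93.6 in Q7SST, 96.0 in Q111SST, 97.7 with loxapine, 96.5 with cyproheptadine, 92.0 with meclizine and 87.2 with DKI. DKI gave its lowest value and loxapine its highest. Atg14, which directs the complex to the forming autophagosome, ranged from 76.8 with DKI to 87.3 in Q7SST. Uvrag, which sends the kinase to the endosomal and maturation route instead, had 81.7 in Q7SST, 79.7 in Q111SST, 89.8 with loxapine, 87.8 with cyproheptadine, 85.8 with meclizine and 74.3 with DKI. Loxapine stood 10.1 points above Q111SST at Uvrag. Its strongest peak there was 1647 bp and 1 of a pair, beside a single peak of 3243 bp in Q111SST, so strength was read from unlike intervals. Joining peaks within 1 kb kept the higher score of each pair, so the 10.1 points then found cannot settle this.

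Membrane supply covers lipid transfer (ATG2), scrambling (ATG9, VMP1) and the phosphoinositide readers WIPI1, WIPI2 and WDR45B. The median over marked genes was 90.7 in Q7SST, 83.6 in Q111SST, 87.0 with loxapine, 80.4 with cyproheptadine, 82.0 with meclizine and 70.4 with DKI. The Q7SST median includes Vmp1 at a start of noncoding transcripts and leaves out Atg9b, which had no peak in its window there. With Atg9b left out of every list, the median over 7 genes was 90.7 in Q7SST and 85.7 in Q111SST. With Vmp1 also read at its 5′ promoter it was 83.8 in Q7SST and 85.7 in Q111SST, so the higher Q7SST value rested on Vmp1. Both choices were made after seeing the data. Atg9a was the strongest in Q111SST, with 97.9 in Q7SST, 89.6 in Q111SST, 95.2 with loxapine, 94.8 with cyproheptadine, 93.0 with meclizine and 95.8 with DKI, and Q111SST was its lowest list. Atg9b had no peak over its own start in any list. The window caught a peak on the side of its neighbour Abcb8 whose near edge was 449 bp upstream in Q111SST, 471 with loxapine, 935 with meclizine and 964 with cyproheptadine. In Q7SST and DKI that edge was 1614 and 1487 bp away, outside the window, and Atg9b counted as lost there. Of all protein-coding genes marked in Q111SST, 3.56% were lost in Q7SST and 4.94% in DKI, and 5.7%, 2.12% and 1.37% in cyproheptadine, loxapine and meclizine, where none of the 41 genes was lost. The Atg9b percentiles (77.9 in Q111SST, 94.1 with cyproheptadine, 88.3 with loxapine and 96.1 with meclizine) are values of that neighbouring peak, and so are its differences of 10 points or more from Q111SST in the 3 compound lists.

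Atg2b, a lipid transfer protein, was the weakest gene of the step in Q111SST, with a percentile of 70.2 in Q7SST, 66.6 in Q111SST, 71.7 with loxapine, 66.5 with cyproheptadine, 66.7 with meclizine and 59.9 with DKI. Its paralog Atg2a had 90.7 in Q7SST, 88.4 in Q111SST, 87.5 with loxapine, 72.1 with cyproheptadine, 84.1 with meclizine and 80.5 with DKI, and cyproheptadine was the low list, 16.3 points below Q111SST. Wipi1 had 80.1 in Q7SST, 81.6 in Q111SST, 82.4 with loxapine, 76.5 with cyproheptadine, 69.5 with meclizine and 55.9 with DKI. DKI and meclizine stood 25.7 and 12.1 points below Q111SST, and the 2 lists were the lowest at Wipi1. Wdr45b had 83.8 in Q7SST, 85.7 in Q111SST, 86.5 with loxapine, 84.3 with cyproheptadine, 79.8 with meclizine and 63.4 with DKI, with DKI alone below by over 10 points (22.3). Wipi2, the reader that recruits the conjugation machinery, kept a narrower range, 90.7 in Q7SST, 87.3 in Q111SST, 93.3 with loxapine, 92.7 with cyproheptadine, 89.5 with meclizine and 83.6 with DKI.

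Vmp1, an endoplasmic reticulum scramblase, had 3 marked groups of starts of 5, and its strongest peak was not at the same start in every list. Over the gene as a whole the percentile was 95.1 in Q7SST, 74.7 in Q111SST, 76.8 with loxapine, 64.5 with cyproheptadine, 70.7 with meclizine and 70.4 with DKI. At the 5′ promoter, which is the one with a protein-coding transcript among the 3, it was 71.9 in Q7SST, 74.7 in Q111SST, 76.8 with loxapine, 64.5 with cyproheptadine, 70.7 with meclizine and 69.2 with DKI. There Q7SST was 2.82 points below Q111SST, so the higher Q7SST value was not at the promoter. It was at an internal start of noncoding transcripts (positions 86602263 to 86602295 of chromosome 11), where strength was 95.1 in Q7SST, 62.5 in Q111SST, 74.8 with loxapine, 63.1 with cyproheptadine, 50.1 with meclizine and 33.5 with DKI. The peak there was 1691 bp long in Q7SST and between 498 and 1254 bp in the other 5 lists. All 5 lists of STHdhQ111 cells stood below Q7SST at this start by over 20 points. Another group of noncoding starts nearer the 3′ end (86586881 to 86586994) lay under a peak of 4043 to 4246 bp in every list, with strength between 59.6 and 70.4. The annotated microRNA gene Mir21a lies within that peak. The window of the internal start (GRCm38.p6, read by coordinates) is shown because Q7SST stands above the 5 other lists there, with CG dinucleotides in capitals.
Vmp1, internal start, chr11:86602246-86602545, minus strand: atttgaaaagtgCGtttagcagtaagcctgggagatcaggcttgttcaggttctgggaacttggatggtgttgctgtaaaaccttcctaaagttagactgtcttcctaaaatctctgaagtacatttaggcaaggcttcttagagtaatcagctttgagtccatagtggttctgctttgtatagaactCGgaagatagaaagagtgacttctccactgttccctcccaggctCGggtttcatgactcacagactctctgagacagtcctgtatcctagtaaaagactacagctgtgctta
Its ratio of observed to expected CG was 0.211, beside 1.03 in the window at the 5′ end of Vmp1, so the Q7SST peak stood at a CG-poor start, as at the internal Tfeb start.

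Conjugation attaches ATG12 to ATG5 and ATG8 proteins to lipid. The 10 genes had a median strength of 87.0 in Q7SST, 91.2 in Q111SST, 91.2 with loxapine, 85.5 with cyproheptadine, 88.7 with meclizine and 86.1 with DKI. Atg7, the activating enzyme for both branches, was the strongest in Q111SST, with 86.8 in Q7SST, 98.4 in Q111SST, 90.4 with loxapine, 85.0 with cyproheptadine, 90.9 with meclizine and 89.1 with DKI. Q111SST was its highest list, and Q7SST and cyproheptadine stood 11.6 and 13.4 points lower. Loxapine had a further weak Atg7 peak (strength 12.2, 220 bp) near an internal start. Atg3, the enzyme that transfers ATG8 proteins to lipid, went the other way, with 78.0 in Q7SST, 85.7 in Q111SST, 92.1 with loxapine, 93.9 with cyproheptadine, 89.7 with meclizine and 97.8 with DKI. DKI stood 12.1 points above Q111SST at Atg3, the one value higher by 10 points or more in that list, and Q7SST was lowest. The Atg3 peak is shared with Slc35a5 in every list.

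Atg10, the transferase for ATG12, had a percentile of 90.7 in Q7SST, 92.4 in Q111SST, 93.3 with loxapine, 86.1 with cyproheptadine, 93.0 with meclizine and 77.7 with DKI, and DKI was 14.7 points below Q111SST. Atg5 and Atg12, which form the conjugate, ranged from 96.5 to 98.3 and from 83.5 to 93.4. Atg16l1, which places the conjugate on membranes, and its paralog Atg16l2 ranged from 83.1 to 90.9 and from 79.5 to 91.6, and Atg16l2 was 12.1 points lower with cyproheptadine than in Q111SST. Of the proteases that prime ATG8 proteins, Atg4c stayed between 94.2 and 97.6 in every list. Atg4b, the main protease, was the weakest gene of the step in Q111SST, with 73.4 in Q7SST, 74.3 in Q111SST, 78.3 with loxapine, 67.1 with cyproheptadine, 66.2 with meclizine and 64.8 with DKI. Atg4d had 61.9 in Q7SST, 75.5 in Q111SST, 70.9 with loxapine, 82.6 with cyproheptadine, 75.1 with meclizine and 68.6 with DKI, with Q7SST lowest, 13.5 points below Q111SST. No list moved all 3 protease genes in 1 direction by 10 points.

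The ATG8 proteins coat the membrane and hold cargo receptors. Their 5 genes split into a strong and a variable set. Map1lc3b, the source of the LC3B protein used as an autophagosome marker, had a percentile of 93.0 in Q7SST, 96.5 in Q111SST, 95.9 with loxapine, 90.8 with cyproheptadine, 95.2 with meclizine and 90.2 with DKI. Gabarap had 92.3 in Q7SST, 96.1 in Q111SST, 97.5 with loxapine, 95.0 with cyproheptadine, 95.6 with meclizine and 97.2 with DKI. Gabarapl2, or GATE-16, had 93.8 in Q7SST, 92.8 in Q111SST, 97.2 with loxapine, 95.7 with cyproheptadine, 95.1 with meclizine and 98.5 with DKI. All 3 stood between 90.2 and 98.5 in every list. Map1lc3a, which encodes LC3A, was the most variable of the 41 genes, with 84.4 in Q7SST, 65.2 in Q111SST, 73.1 with loxapine, 54.2 with cyproheptadine, 65.7 with meclizine and 37.4 with DKI. Q7SST was the highest list, 19.3 points above Q111SST, and DKI the lowest, 27.7 points below Q111SST, while the width of the peak stayed between 1366 and 1554 bp. Against Q111SST, the Map1lc3a differences were 26.3 (Q7SST) and -16.8 (DKI) points with lists cut to equal size, and -4.39 with cyproheptadine, where the full list gave -10.9. Gabarapl1 had 76.0 in Q7SST, 71.5 in Q111SST, 63.9 with loxapine, 56.0 with cyproheptadine, 64.0 with meclizine and 59.9 with DKI, again highest in Q7SST, and lowest with cyproheptadine. The Gabarapl1 peak was 2178 in Q7SST, 3212 in Q111SST, 3781 with loxapine, 3318 with cyproheptadine, 3249 with meclizine and 2187 with DKI bp, so the 4 long values belonged to Q111SST, cyproheptadine, loxapine and meclizine. The scores behind Map1lc3a were 126 in Q7SST, 66 in Q111SST, 83 with loxapine, 45 with cyproheptadine, 82 with meclizine and 34 with DKI, beside a median score over all peaks of 50, 43, 46, 40, 54 and 46 in those lists.

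The receptors were the strongest step by median in Q111SST and in the cyproheptadine, loxapine and DKI lists, tied with the ATG8 genes with meclizine, and came just below them in Q7SST (91.8, beside 92.3). Their median was 91.8 in Q7SST, 93.0 in Q111SST, 97.3 with loxapine, 96.0 with cyproheptadine, 95.1 with meclizine and 95.3 with DKI. Sqstm1 encodes p62, which carries ubiquitinated aggregates to LC3, and had a percentile of 90.0 in Q7SST, 91.1 in Q111SST, 97.3 with loxapine, 97.7 with cyproheptadine, 89.2 with meclizine and 95.3 with DKI. Cyproheptadine and loxapine were the high lists and meclizine the low one, at a peak shared with Mgat4b. Nbr1, a p62 relative, had 95.4 in Q7SST, 89.6 in Q111SST, 89.2 with loxapine, 89.2 with cyproheptadine, 95.1 with meclizine and 96.9 with DKI. Its 3 high lists were Q7SST, DKI and meclizine, and the peak also covers the divergent start of Brca1. Optn, the receptor optineurin, had 80.4 in Q7SST, 94.0 in Q111SST, 97.5 with loxapine, 96.0 with cyproheptadine, 92.5 with meclizine and 90.5 with DKI. Q7SST stood apart at Optn, 13.6 points below Q111SST and below all 5 other lists. Calcoco1, a receptor for endoplasmic reticulum, had 99.7 in Q7SST, 99.5 in Q111SST, 99.2 with loxapine, 98.4 with cyproheptadine, 99.6 with meclizine and 99.3 with DKI. Tax1bp1, a receptor for ubiquitinated cargo, had 91.8 in Q7SST, 93.0 in Q111SST, 93.6 with loxapine, 91.1 with cyproheptadine, 95.5 with meclizine and 91.9 with DKI. No difference from Q111SST reached 10 points at the 5 receptor genes in the 4 compound lists, but percentiles this high leave little room for a larger one upward. By rank among marked promoters, Sqstm1 stood at 73.9 in Q111SST, 94.5 with cyproheptadine, 91.7 with loxapine and 90.0 with DKI. Nbr1 stood at 69.3 in Q111SST, 93.2 with DKI and 87.5 with meclizine.

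The 5 comparisons below share the Q111SST list, so an unusual value there enters all of them. Between Q7SST and Q111SST, the contrast of genotype under vehicle, the median change over 40 genes marked in both was -1.14 points, beside -1.04 over 12335 protein-coding genes. Vmp1 and Map1lc3a were higher in Q7SST by at least 10 points (8.85% of all genes were), and Rb1cc1, Atg4d, Atg7 and Optn lower (13% of all genes were). As shares of 40 genes these counts were 5% and 10%, both under the background.

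With cyproheptadine the median change was -1.39 points over 41 genes, beside -3.74 over all genes. Atg9b was higher, at the peak it shares, and 10 genes were lower by at least 10 points, where 25.9% of all genes were lower and 3.48% higher. The 10 were Atg13, Atg101, Pik3c3, Pik3r4, Atg2a, Vmp1, Atg7, Atg16l2, Map1lc3a and Gabarapl1, spread over 5 of the 7 steps, and their share, 24.4%, was close to the background. With loxapine the median change was 0.57 points, beside -0.35. Uvrag and Atg9b were higher (background 7.1%) and Pik3r4 lower (9.41%). In lists cut to equal size, 10 genes moved by 10 points or more with loxapine in place of 3, while the share of all genes went from 16.5% to 29.1%. With cyproheptadine, Pik3c3 (-8.48), Vmp1 (-5.69) and Map1lc3a (-4.39) were then within 10 points, and Pik3c3 was so with a 5 kb window too (-8.76).

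In the DKI list the median change was -6.52 points over 40 genes, beside -6.57 over all genes. Atg3 was higher (background 3.55%), and 11 genes were lower by at least 10 points, where 38.8% of all genes were lower. Their share, 27.5%, was under the background. The 11 were Ulk1, Ulk2, Atg101, Becn1, Pik3c3, Pik3r4, Wipi1, Wdr45b, Atg10, Map1lc3a and Gabarapl1. Initiation gave 3 of its 5 genes, nucleation 3 of 6, membrane supply 2 of 7, conjugation 1 of 10 and the ATG8 genes 2 of 5, while no receptor gene and neither transcription factor gene was among them. Percentiles were below Q111SST at all 5 initiation genes, all 6 nucleation genes, 6 of 7 of membrane supply, 8 of 10 of conjugation, 3 of 5 ATG8 genes, 3 of 5 receptors and both transcription factors, where 78.3% of all genes were below it. The median was -13.1 points for initiation, -9.41 for nucleation and -0.21 for the receptors. The DKI list was the shortest of the 6, and with lists of equal size 10 of the 40 genes moved by 10 points or more in place of 12, and 12 with cyproheptadine in place of 11. The share of all genes was then 32.7% with DKI in place of 42.3%, and 27.3% with cyproheptadine in place of 29.4%. With DKI the Pik3c3 difference was then -24.0 points and that of Wipi1 -20.0, while Ulk1, Atg101, Becn1 and Gabarapl1 came within 10 points.

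With meclizine the median change was -1.53 points, beside -1.54 over all genes. Atg9b was higher (background 4.18%) and Wipi1 lower (background 10%). Over the 5 comparisons, 19 genes were never moved by 10 points, 13 were in 1 comparison, 6 in 2, 3 in 3 and none in 4 or 5. Of all genes, 39.6% were moved in no comparison, 25.1% in 1, 18.3% in 2, 11.1% in 3, 4.82% in 4 and 1.05% in 5. The 3 were Pik3r4 (lower in 3 compound lists), Map1lc3a and Atg9b.

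**Figure D2:**
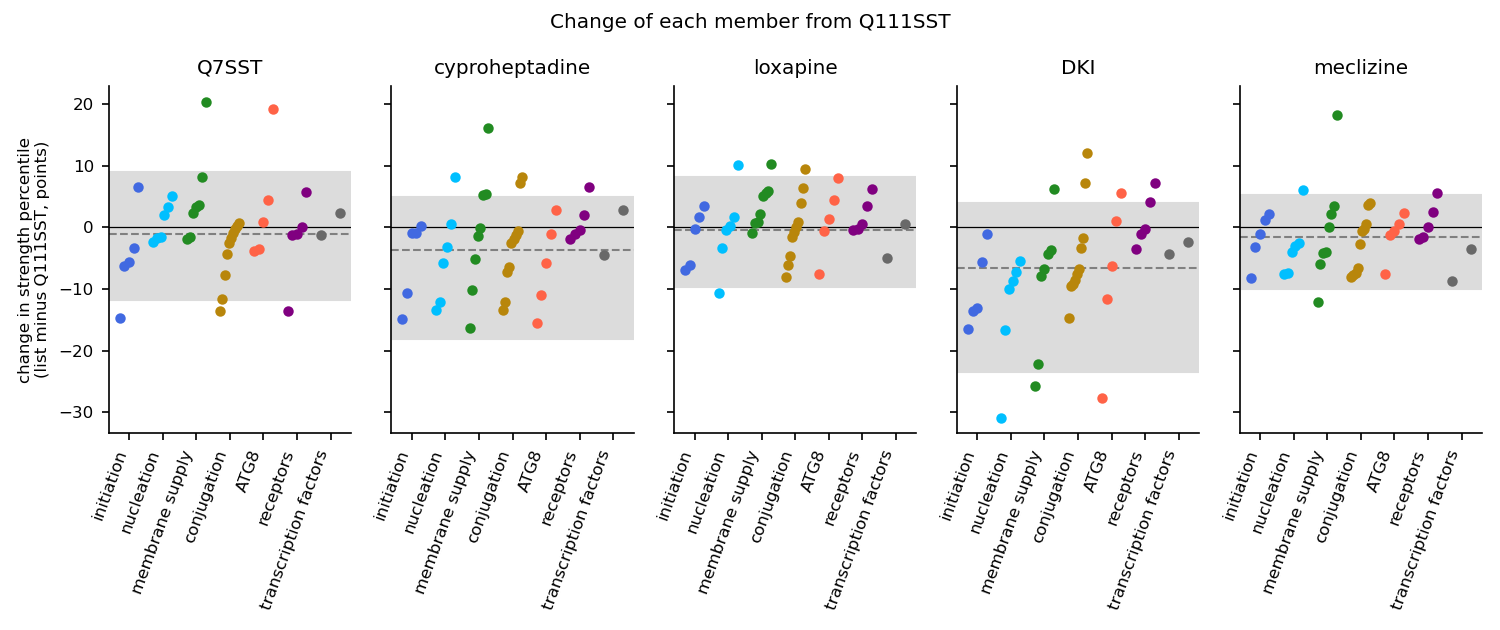
Change in strength percentile of each autophagy gene from Q111SST (points, vertical axis) by step (horizontal axis, 1 dot per gene) in Q7SST and the 4 compound lists. The dashed line is the median over all protein-coding genes and the grey band their 10th to 90th percentiles, and in DKI the median is -6.57 points and Pik3c3 stands lowest at -30.9.

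The study placed cyproheptadine and loxapine in its Group A and DKI and meclizine in its Group B by metabolite profiles. Of 40 genes marked in all 4 lists, 13 had both Group A percentiles above both Group B percentiles (32.5%, beside 22.9% of all genes) and 4 the reverse (10%, beside 10.3%). By rank among marked promoters only, which removes the overall offset between lists, the counts were 13 and 10 (32.5% and 25%, beside 18.1% and 21.2%). The ranks of Ulk2 were 95.0 and 95.4 in Group A against 61.6 and 75.1 in Group B, the widest gap in that direction. Wipi1 (43.8 and 48.7 against 21.2 and 29.0), Ambra1 (91.4 and 92.9 against 72.0 and 78.9), Wdr45b (60.7 and 58.9 against 30.1 and 48.6) and Optn (90.3 and 92.2 against 79.2 and 80.2) followed. In the other direction stood Atg13 (60.7 and 63.0 against 86.7 and 78.4) and Nbr1 (72.9 and 66.5 against 93.2 and 87.5). Of 5 receptor genes, Sqstm1 and Optn were higher in Group A, and Nbr1, Calcoco1 and Tax1bp1 higher in Group B, by rank. With 1 list per compound, a pattern by group and a pattern of 2 libraries cannot be told apart.

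Peak width showed another side of the same promoters. The median width at autophagy genes was 1881.5 bp in Q7SST, 1896 in Q111SST, 1904 with loxapine, 1674 with cyproheptadine, 1828 with meclizine and 1614.5 with DKI, beside 1709, 1795, 1720, 1546, 1672 and 1461 bp over all marked genes. The widest in Q111SST were Uvrag (3243 bp), Gabarapl1 (3212 bp) and Rb1cc1 (3197 bp), and the narrowest Atg4b (1014 bp), Atg7 (1348 bp) and Pik3c3 (1349 bp). Width stayed nearly constant at some genes: Sqstm1 ran from 2153 to 2248 bp and Ulk1 from 2281 to 2405 bp, although the Ulk1 percentile spanned 15.8 points. Of the 34 changes of 10 points or more in strength, the percentile by width (of the gene's widest peak) moved the opposite way in 28, mostly by under 5 points. Over all genes it moved the opposite way in 56.1% of such changes.

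**Figure D3:**
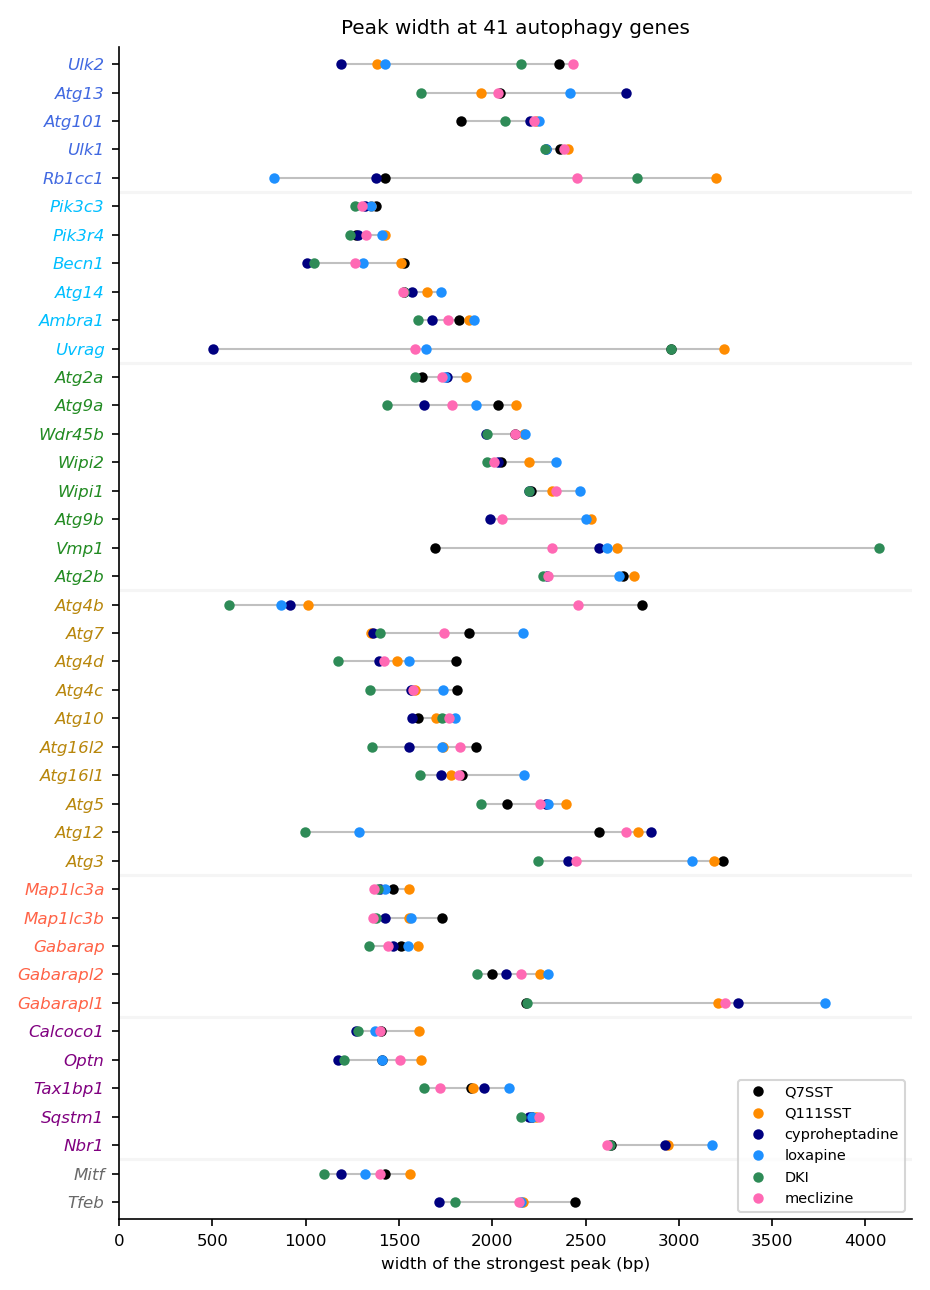
Width of the strongest peak (bp, horizontal axis) at each of the 41 autophagy genes (rows, grouped by step and ordered by width in Q111SST), with 1 coloured dot per list and a grey line from the narrowest to the widest. Most genes span a short range, and long lines stand at Rb1cc1, Uvrag, Vmp1, Atg4b and Atg12.

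Large changes of width came mainly where 1 peak in one list was divided into several in another. Widths at Uvrag were 2956 in Q7SST, 3243 in Q111SST, 1647 with loxapine, 501 with cyproheptadine, 1584 with meclizine and 2958 with DKI bp. Q111SST, Q7SST and DKI had a single peak across the start, and cyproheptadine, loxapine and meclizine had a pair. Widths at Rb1cc1 were 1423 in Q7SST, 3197 in Q111SST, 829 with loxapine, 1375 with cyproheptadine, 2454 with meclizine and 2775 with DKI bp, with a pair of peaks in Q7SST, cyproheptadine and loxapine, and a bare stretch over the start between them. Widths at Atg4b were 2804 in Q7SST, 1014 in Q111SST, 869 with loxapine, 918 with cyproheptadine, 2458 with meclizine and 586 with DKI bp, with a single peak in Q7SST and meclizine. Widths at Atg12 were 2574 in Q7SST, 2783 in Q111SST, 1285 with loxapine, 2848 with cyproheptadine, 2714 with meclizine and 997 with DKI bp, with a pair in loxapine and DKI. A width ratio to Q111SST of 1.5 or more in either direction was counted at 4, 3, 4, 4 and 3 genes in Q7SST, cyproheptadine, loxapine, DKI and meclizine. Wider peaks numbered 2, 0, 1, 2 and 2 of these (backgrounds 5.82%, 0.978%, 2.52%, 1.32% and 3.78%) and narrower ones 2, 3, 3, 2 and 1 (6.89%, 16%, 8.51%, 18.7% and 4.63%). With peaks within 1 kb joined, the counts were 2, 1, 1, 2 and 1. More than 1 peak in the window was found at 4, 3, 5, 7, 4 and 3 autophagy genes, in the order Q7SST, Q111SST, cyproheptadine, loxapine, DKI and meclizine, beside 14.9%, 15.5%, 16.3%, 18.1%, 15.4% and 14% of all marked genes.

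The edge of a peak relative to the start also differed between lists. At Ulk2 the peak reached 518 bp upstream of the protein-coding start in Q7SST, 534 with DKI and 527 with meclizine. In Q111SST, cyproheptadine and loxapine it began 569, 599 and 525 bp downstream, and these 3 lists had the 3 highest Ulk2 percentiles. Width at Ulk2 was 2357 in Q7SST, 1381 in Q111SST, 1425 with loxapine, 1189 with cyproheptadine, 2433 with meclizine and 2153 with DKI bp. At Map1lc3b the Q7SST peak began 270 bp upstream of the 5′ start, and in the 5 lists of STHdhQ111 cells it began 121 to 184 bp downstream. At Optn a peak overlapped the promoter window in 2 lists of 6.

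**Figure D4:**
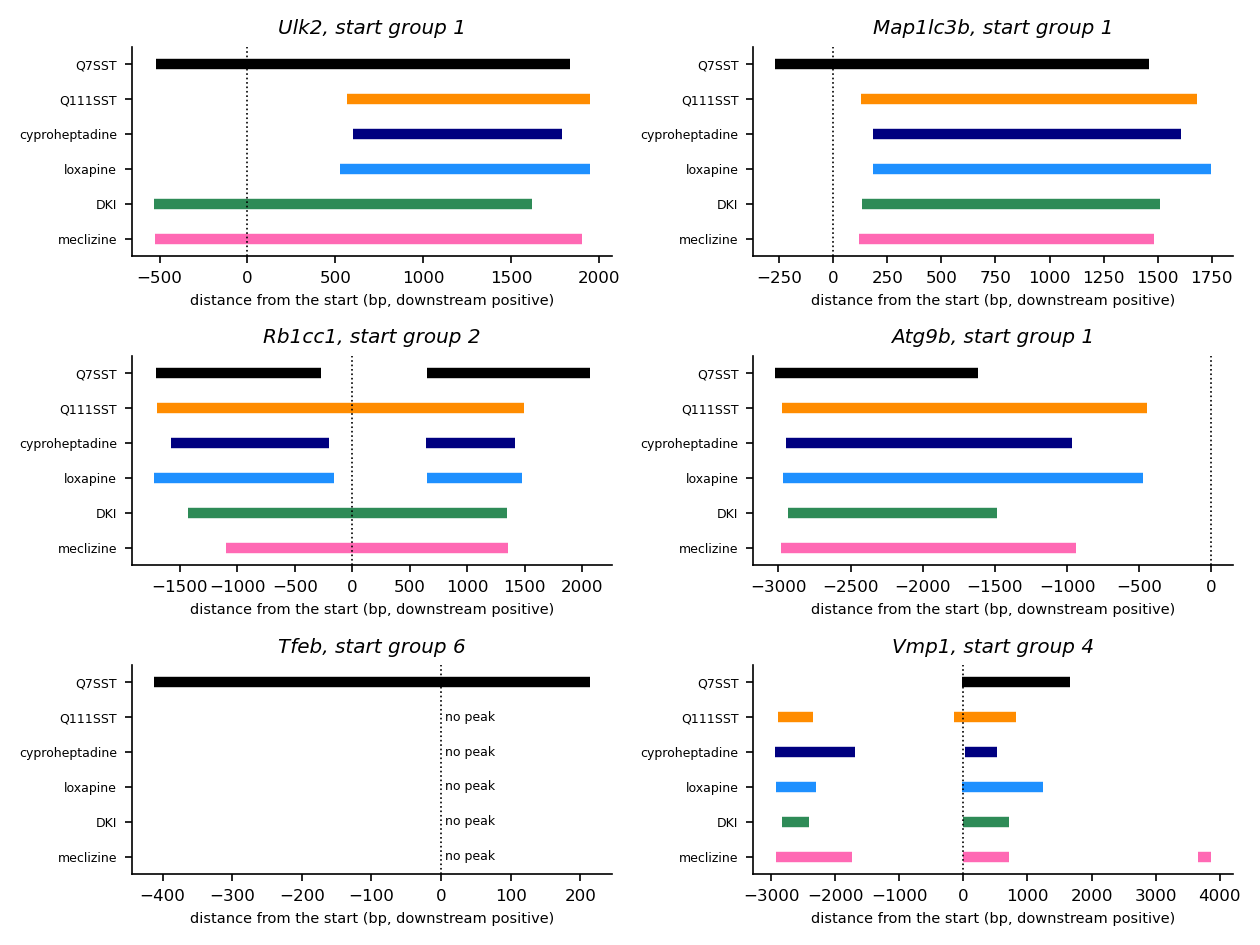
Extent of the H3K4me3 peaks (bars, 1 row per list) around an annotated start (dotted line, distance in bp with downstream to the right) at Ulk2, Map1lc3b, Rb1cc1, Atg9b, the internal start of Tfeb and the internal noncoding start of Vmp1. Start groups are numbered from the 5′ end of each gene, and zero is the first start of the group in the direction of transcription. At Map1lc3b the Q7SST bar alone crosses the line, and at Atg9b no bar reaches it.

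Any annotated start lay under a peak for 39 of 40 marked autophagy genes in Q7SST, 39 of 41 in Q111SST, 36 of 41 with loxapine, 36 of 41 with cyproheptadine, 39 of 41 with meclizine and 37 of 40 with DKI. The share over all marked genes was 88.5%, 88.3%, 83.7%, 82%, 89.4% and 84.7%. Of the 43 RefSeq promoter windows, 31 were overlapped by a peak in all 6 lists, 6 in none and 6 in some lists. The 6 of the last kind were those of Ulk2 and Uvrag, in 3 lists each, and of Atg4b, Optn, Map1lc3b and the first Tfeb start, in 2 lists each. Q7SST had the most windows overlapped, 37, followed by meclizine with 36, and cyproheptadine and loxapine had the fewest, 31. Over all 20150 windows Q7SST (52.1%) and meclizine (51.8%) were likewise highest and cyproheptadine (45.1%) lowest, with 50.7% in Q111SST, 47.8% with loxapine and 47.1% with DKI.

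The windows of autophagy genes were rich in CG dinucleotides, with a median ratio of observed to expected of 0.763, beside 0.588 over all protein-coding windows. Among windows overlapped by a Q111SST peak the median was 0.783 at autophagy genes and 0.781 over all genes, so marked windows were alike in this. Of 5 windows with a ratio under 0.3, none was overlapped in Q111SST (8.67% of all such windows were), and none in any other list. All 4 windows from 0.3 to under 0.6 were overlapped (43.7% of all such windows), and 28 of 34 at 0.6 or above (79.8%). The 6 exceptions at 0.6 or above were Atg4b, with the highest ratio of the 43 windows (1.21), Ulk2 (1.08), Map1lc3b (0.982), the first Tfeb start (0.966), a downstream Mitf start (0.673) and Optn (0.640). At 5 of these the Q111SST list held a peak beside the window, within 1 kb of an annotated start of the gene, and at the Mitf start none.

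Start choice was examined over 154 groups of starts, of which 53 were marked in at least 1 list. A single marked group was found at 32 genes and several at 9 (Ulk2, Atg101, Atg9a, Wipi1, Wipi2, Vmp1, Atg7, Nbr1 and Tfeb). At Ulk2, Wipi1, Wipi2, Atg101 and Atg9a the further group lay near enough to share the peak of the first. Atg101 reached its second group with loxapine alone, Atg9a in Q7SST and Q111SST, and Wipi2 its upstream noncoding group in Q111SST and loxapine. Nbr1 had a weak internal peak at a noncoding start in every list, with strength 6.14 in Q7SST, 43.0 in Q111SST, 52.0 with loxapine, 56.9 with cyproheptadine, 45.5 with meclizine and 20.2 with DKI. Q7SST was lowest there, opposite to the internal starts of Vmp1 and Tfeb, so internal starts did not share 1 direction.

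A further 40 genes of the pathway were read in the same way. They covered fusion with the lysosome (Stx17, Snap29, Vamp8 and the HOPS subunits), mitophagy receptors, other regulators and the relatives Tfe3 and Tfec. All but Tfec, a TFEB relative expressed mainly in myeloid cells, were marked in every list. Of the 39, the number higher and lower than Q111SST by at least 10 points was 1 and 5 in Q7SST, 0 and 7 with cyproheptadine, 1 and 1 with loxapine, 0 and 20 with DKI and 1 and 2 with meclizine. Over all genes the shares lower were 13%, 25.9%, 9.41%, 38.8% and 10% and the shares higher 8.85%, 3.48%, 7.1%, 3.55% and 4.18% in that order. With DKI the median change was -10.1 points, beside -6.57 over all genes. The 20 included 3 of the 4 SNARE genes listed, Snap29 (-12.5), Vamp8 (-21.3) and Ykt6 (-19.8), and 5 of the 6 HOPS subunits, which tether autophagosomes to lysosomes, Vps11 (-16.7), Vps16 (-10.1), Vps18 (-11.5), Vps33a (-16.6) and Vps39 (-10.8). The SNARE Stx17 differed by 3.91 points and the HOPS subunit Vps41 by -2.24. These further genes were not read in lists of equal size, where Ulk1, Atg101, Becn1 and Gabarapl1 came within 10 points with DKI. The largest differences of the set were at Rubcnl, a regulator of fusion, in cyproheptadine (-40.9), and at Ei24, a membrane protein needed for autophagy, in DKI (-31.9). The few higher values were Zfyve1, an omegasome marker, in Q7SST (11.9), Wdfy3, an aggregate adaptor, in loxapine (23.5) and Tbc1d14, a Rab11 regulator, in meclizine (11.7). The Wdfy3 peak was 901 bp long with loxapine and 2504 bp in Q111SST, so its strength was read from unlike intervals. Bnip3 and Fundc1, both mitophagy receptors, were lower in Q7SST than in Q111SST, by 23.3 and 13.6 points, while Bnip3l, another mitophagy receptor, differed by 0.59 points.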

How the data were processed

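H3K4me3 ChIP-Seq was profiled in 6 samples of STHdh cells, 1 deposited peak list each. Per the submitters' processing notes, Trimmomatic 0.36, Bowtie2, SAMtools 1.3 and MACS2 were used with mm10, while peak thresholds, input control and pooling of the triplicate treatments are not given in the sources used here. The authors deposited intervals with a score, a whole number of at least 10 whose scale was not stated. No peak passed the end of its GRCm38 chromosome (0 of 21). Coordinates are counted from 1.

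Peaks within 1 kb of any GENCODE M21 start were assigned to genes, and the one of highest score gave strength (mean rank as a percentile of the list) and width. Differences of 10 points, or width ratios of 1.5, were counted against Q111SST and set beside all protein-coding genes. Groups came from the labels. Values in every list were given for genes not marked throughout, genes differing by 10 points, the strongest and weakest per step, the 3 widest and 3 narrowest, ATG8 and receptor genes and genes with several marked groups of starts. The genes and lists were chosen with earlier results of these data known. Matching and ranking were tested on simulated peaks. Alternatives were the start window, list size, score threshold, protein-coding starts, joined peaks, percentiles of width, other cut-offs and, added after seeing the data, ranks among marked promoters and a membrane supply median with Vmp1 at its promoter and without Atg9b. Python 3.11.15, numpy 2.4.6, pandas 2.3.3 and scipy 1.17.1 were used. Windows of chromosome 18 genes are not shown.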

Additional observations from a re-analysis of the deposited data

How the results depend on the processing

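No paired analysis was possible because the lists carried no replicates, and none could be left out. Depth was unknown. The count of 40 genes marked in all 6 lists stayed between 34 and 41 under every alternative. Losses and gains against Q111SST together were 2 of 205 pairs of a gene and a list, both losses, where 5.25% of such pairs over all genes were lost or gained. They became 14 of 200 with a peak required over the start (9.79% over all genes), 0 with a 5 kb window (6.17%) and 5 at the stricter score threshold, a score of 47, the pooled median (8.24%). That threshold removed weak peaks from every list, so median strength was 81.4 in Q7SST, 78.0 in Q111SST, 78.1 with loxapine, 70.3 with cyproheptadine, 80.7 with meclizine and 66.0 with DKI, and equal list sizes (30758 peaks) gave 84.0 with loxapine.

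Genes differing by 10 points or more numbered 6, 11, 3, 12 and 2 in Q7SST, cyproheptadine, loxapine, DKI and meclizine, where 21.8%, 29.4%, 16.5%, 42.3% and 14.2% of all genes did. In the same order they numbered 15, 22, 16, 24 and 12 at the stricter threshold (38%, 53.2%, 37%, 57.3% and 29.1% of all genes), 17, 20, 16, 20 and 13 by rank among marked promoters, chosen after seeing the data (40.3%, 43.3%, 35.9%, 47.5% and 28.8%), and 13, 22, 15, 28 and 14 at 5 points (45.2%, 53.8%, 41%, 64.4% and 38.4%). By width percentile they numbered 6 with loxapine (16.7%), 4 with cyproheptadine (19.3%), 4 with meclizine (13.4%) and 5 with DKI (23.4%). Where the start itself had to be covered, loxapine (14.5%) and meclizine (12.7%) had 1 each, and with lists of equal size loxapine had 10 (29.1%). Width changes of 1.5 times, 4, 3, 4, 4 and 3 in that order (12.7%, 17%, 11%, 20.1% and 8.41%), numbered 2, 1, 1, 2 and 1 with a peak over the start (8.39%, 9.93%, 5.74%, 14.1% and 5%) and with peaks within 1 kb joined (12%, 15.1%, 9.5%, 17.9% and 7.42%). At a ratio of 1.2 they numbered 8 in Q7SST (28.4%), 12 with cyproheptadine (38%), 17 with DKI (52.8%) and 8 with meclizine (24.3%).

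Of the 34 single differences, 1 changed sign with protein-coding starts alone, Vmp1 in Q7SST (-2.82), because its peak is at a noncoding start. By percentile of width 28 changed sign (56.1% over all genes). In Q7SST these were Vmp1 (-0.0035), Atg4d (10.3), Atg7 (16.9) and Map1lc3a (-1.27). With cyproheptadine they were Atg13 (11.9), Atg101 (2.62), Pik3c3 (4.90), Pik3r4 (0.976), Atg2a (2.14), Atg9b (-3.92), Vmp1 (0.0303), Atg7 (6.40), Atg16l2 (0.0989), Map1lc3a (0.852) and Gabarapl1 (0.777). With loxapine they were Pik3r4 (4.86) and Uvrag (-15.7). With DKI they were Ulk1 (2.05), Ulk2 (23.9), Atg101 (1.86), Pik3c3 (2.99), Wipi1 (2.33), Wdr45b (1.44), Atg3 (-3.22), Atg10 (6.80) and Map1lc3a (0.701), and with meclizine Atg9b (-4.76) and Wipi1 (1.54). In bp, the strongest peak was narrower than in Q111SST at 19 of the 27 lower values and at all 7 higher ones. The cause of the sign changes was not tested.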
